A study of Danio rerio with 5 samples.

Results

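The genes described are the nuclear receptors for retinoic acid in zebrafish (Danio rerio): 4 retinoic acid receptor (RAR) genes and 6 retinoid X receptor (RXR) genes. They were chosen by symbol. The names raraa, rarab, rarga, rargb, rxraa, rxrab, rxrba, rxrbb, rxrga and rxrgb were matched in any case, or without the last letter to a symbol in capitals, which gave 10 of the 31953 genes counted. Symbols were raraa, rarab, rxrbb, rxrga, rxrgb and RXRB for 1 gene each. The table of names used here gives 2 genes as RARG and 2 as RXRA without their a or b, so these are told apart by Ensembl identifier.

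All libraries came from Tg(isl1:Kaede) embryos at 28 to 30 hours after fertilisation, in which the isl1 promoter drives Kaede, a fluorescent protein that turns from green to red under light. Vagus motor neurons, the hindbrain neurons that send axons into the vagus nerve, were converted in the most anterior or most posterior part of their nucleus, and red cells were picked by hand after dissociation. Each library held 100 cells. The anterior group had 2 libraries (B and G) and the posterior group 3 (B, G and R). Nothing in the labels says whether the libraries came from separate animals, so p-values measure the spread between these libraries, which may be partly technical.

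Retinoic acid is made from vitamin A and acts as a signal in the developing hindbrain, where it patterns the posterior segments and sets where hox genes are expressed. It enters the nucleus and binds an RAR, which sits on DNA paired with an RXR. Without retinoic acid the pair holds corepressors and deacetylases at the gene, and with it the pair takes up coactivators. RXRs also pair with thyroid hormone, vitamin D and fatty acid receptors.

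Total counts assigned to genes were 14932562 to 20088585 per library, and 10463 to 13589 genes had at least 1 count. The 10 receptor genes held 9053 to 17280 counts per library, 0.0519% to 0.1% of all assigned counts. Values are counts scaled to a library total of 1000000 (CPM) with trimmed-mean (TMM) factors, unless said otherwise. They are given in the order B, G for anterior and B, G, R for posterior libraries. They are not divided by transcript length, so they are compared between libraries and not between genes. In samples of pooled cells, fewer cells expressing a gene and less RNA per cell cannot be told apart. The motor neuron marker ISL1 was present in both groups, with 2381 and 1848 CPM in the anterior and 1805, 1817 and 2255 CPM in the posterior libraries. Of all genes counted, 44.1% had 0 counts in every library. Of markers of other tissues, 8 of 9 neural crest genes (SOX10 among them), 6 of 10 muscle genes (MYOG among them) and 7 of 9 blood and vessel genes (hbae1.1 among them) had 0 counts in all 5 libraries. Others were counted: the summed muscle marker level was 4.37 CPM in anterior B, 0.148 CPM in anterior G, 1.75 CPM in posterior B, 20.9 CPM in posterior G and 32.5 CPM in posterior R, led by actc1b with 26.3 CPM in posterior R. Both genes named ACTA1 and the skin gene TP63 were at 0 in the anterior libraries and had counts in every posterior one. TFAP2A, a gene of neural crest and skin, had 21.5 to 127 CPM over the 5 libraries. The part of these genes in the receptor differences was not tested.

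Of the 10 receptor genes, 8 were detected and all 8 passed the filter on low counts (edgeR filterByExpr). Over 11827 tested genes, 0% passed a Benjamini-Hochberg adjusted p of 0.05 by edgeR's quasi-likelihood method, and 0 of the receptor genes did. The largest difference among the receptors was in rxrga, which was higher in posterior cells in each library. RXRB also lay higher in every posterior library, and 1 RARG gene and rxrbb lay higher in every anterior library. In raraa, rarab, RXRA (ENSDARG00000057737) and rxrgb the groups overlapped. The other 2 genes, the second RARG (ENSDARG00000054003) and the second RXRA (ENSDARG00000035127), had 0 counts in all 5 libraries.

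**Figure D1:**
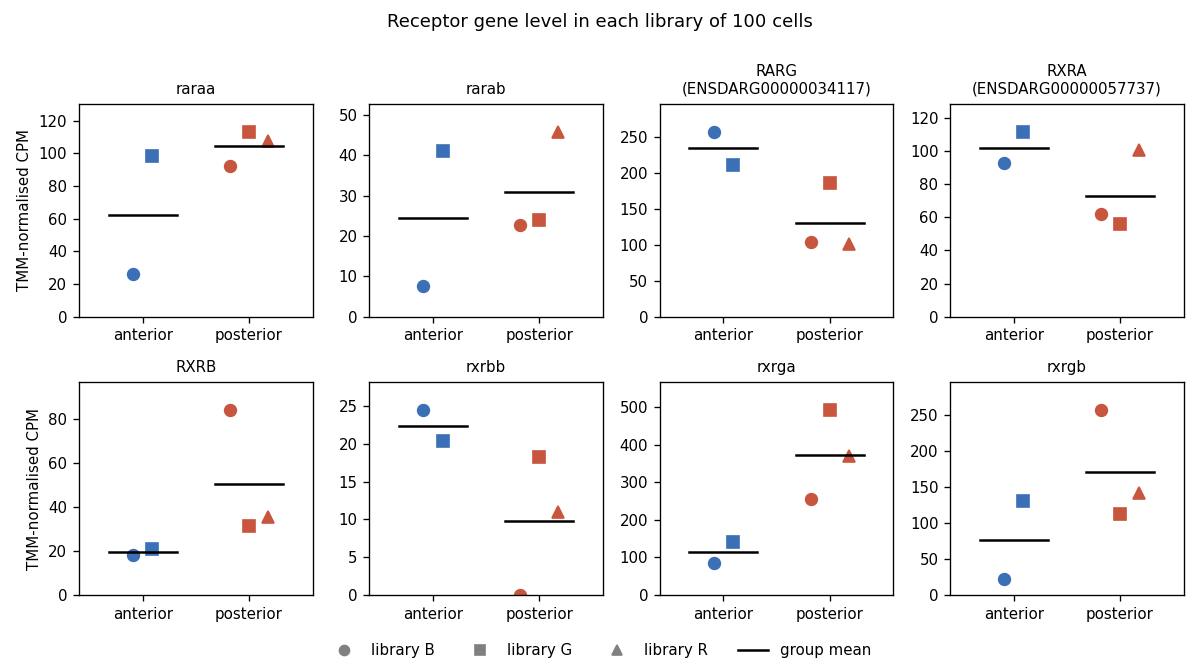
Level of the 8 detected receptor genes in each library, in TMM-normalised CPM on axes that start at 0; circles, squares and triangles are libraries B, G and R, and bars are group means. For rxrga the posterior libraries sit at 254 to 493 CPM and the anterior libraries at 86.3 and 141 CPM.

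The gene rxrga encodes an RXR of the gamma type, a partner in RAR and other receptor pairs. Its level was 86.3 and 141 CPM in anterior B and G. In the posterior group it was 254, 493 and 369 CPM. All posterior libraries lay above both anterior ones, and the lowest posterior value was above the highest anterior value.

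The group means of rxrga were 114 ± 38.6 CPM (SD, n = 2) and 372 ± 119 CPM (SD, n = 3). The log2 fold change was 1.70 ± 0.49 (SE), with a 95% interval from 0.63 to 2.77. The unadjusted p was 0.00473 and the edgeR adjusted p 0.726, so the difference did not pass the threshold over all genes. An unadjusted p under 0.05 with a higher posterior level was found for 2.28% of all genes tested, and rxrga was the 1 receptor gene among them.

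DESeq2 gave rxrga an adjusted p of 0.0203 with a log2 fold change of 1.71, where 1.57% of its genes were called higher in posterior cells. Leaving out each library in turn gave log2 fold changes of 1.401 to 2.101. Among motor neuron markers, 1 of 16 tested genes was higher and 3 were lower in posterior cells at an unadjusted p under 0.05, beside 2.28% and 4.21% of all genes tested. The higher marker was PHOX2A, whose log2 fold change of 2.02 fell to 0.47 without posterior B. The lower ones were PRPH, LHX4 and TBX2 (ENSDARG00000018025). This TBX2 gene had 0 and 80.9 CPM in the anterior and 0.065, 0.063 and 11.2 CPM in the posterior libraries. Its groups overlapped, and its higher anterior mean rested on anterior G. The other TBX2 gene (ENSDARG00000006120) also overlapped between the groups, with an edgeR unadjusted p of 0.503. The motor neuron markers summed to 11520 and 12280 CPM in anterior and 11050 to 11290 CPM in posterior libraries. Every posterior library lay below both anterior ones in this sum, which was not tested. Large parts of the sum came from ELAVL3 and ISL1, and in each of these the groups overlapped. ELAVL3 had 3508 and 4408 CPM in the anterior and 3353, 3529 and 2841 CPM in the posterior libraries. The order of the sum is therefore not the order of each marker. Of 17 tested progenitor and cycling markers, 1 was higher and 2 were lower at an unadjusted p under 0.05, beside the same shares of all genes. Their summed level overlapped between groups, at 10500 and 6506 CPM in anterior and 6174 to 7989 CPM in posterior libraries. The part of these markers in the rxrga difference was not tested.

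The second gamma-type gene, rxrgb, did not separate the groups. Its level was 21.8 and 131 CPM in the anterior group, against 257, 112 and 141 CPM in the posterior group. Anterior B stood far below the other 4 libraries, while anterior G lay within the posterior range. For rxrgb the log2 fold change was 1.11 ± 0.70 (SE; edgeR adjusted p 0.728), with a 95% interval from -0.42 to 2.64. It was 0.37 without anterior B and 2.95 without anterior G, so the size of the difference rested on the anterior library used.

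The beta-type genes RXRB and rxrbb are described next, and neither had an unadjusted p under 0.05. Anterior libraries held 18.4 and 20.7 CPM of RXRB, against 84.3, 31.4 and 35.3 CPM in posterior libraries. No posterior library fell to the anterior level, and posterior B stood apart from the other posterior libraries. Its log2 fold change was 1.34 ± 0.93 (SE; edgeR adjusted p 0.753), and 0.80 without posterior B.

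The other beta-type gene, rxrbb, was at 24.5 and 20.3 CPM in the anterior and at 0, 18.2 and 11.03 CPM in the posterior group. The groups did not overlap, but posterior G lay close to the anterior values. For rxrbb the log2 fold change was -1.17 ± 1.21 (SE; edgeR adjusted p 0.862). Its count in posterior B was 0. Of 3792 genes with a mean in the other 4 libraries within a factor of 2 of rxrbb's 18.5 CPM, 36.5% had 0 counts there. These genes were matched on that mean alone, whereas rxrbb was counted in each of the other 4 libraries. The share is therefore not a rate for genes like rxrbb. Posterior B was also the library with the fewest genes detected.

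RXRA (ENSDARG00000057737), an alpha-type RXR, was at 92.5 and 112 CPM in the anterior and at 61.8, 55.6 and 101 CPM in the posterior group. Posterior R lay between the anterior libraries, so the groups overlapped. Its log2 fold change was -0.48 ± 0.61 (SE; edgeR adjusted p 0.901), with a 95% interval from -1.80 to 0.85.

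Among the RARs, which bind retinoic acid itself, the RARG gene ENSDARG00000034117 lay higher in anterior cells. Its level was 257 and 211 CPM in the anterior group, against 104, 186 and 101 CPM in the posterior group. Posterior G came nearest to the anterior libraries and the other posterior libraries were well below. The group means were 234 ± 32.5 CPM (SD, n = 2) and 129.98 ± 48.1 CPM (SD, n = 3). For this RARG gene the log2 fold change was -0.85 ± 0.49 (SE; edgeR adjusted p 0.726), and its 95% interval, -1.93 to 0.22, includes 0. It had no unadjusted p under 0.05, a level that 4.21% of all genes tested reached with a higher anterior value.

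The alpha-type RARs, raraa and rarab, were both lowest in anterior B. The values of raraa were 26.0 and 98.1 CPM in the anterior and 92.3, 113 and 108 CPM in the posterior libraries. Anterior G was level with the posterior group and anterior B alone was low. Its log2 fold change was 0.71 ± 0.67 (SE; edgeR adjusted p 0.842), 0.090 without anterior B and 2.001 without anterior G.

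The values of rarab were 7.61 and 41.1 CPM in the anterior and 22.6, 24.1 and 45.9 CPM in the posterior libraries. Anterior B was the lowest library and anterior G lay within the posterior range. The log2 fold change was 0.31 ± 0.99 (SE; edgeR adjusted p 0.972) and changed sign to -0.38 without anterior B. It was 2.04 without anterior G.

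Anterior B, the library in which raraa, rarab and rxrgb were low, held RNA of a few genes of other cell types. The endothelial gene kdrl had 97.0 CPM there and at most 0.0634 CPM in the other libraries, and the skin keratin gene krt4 had 30.0 CPM there and at most 0.13 CPM elsewhere. Other vessel markers in the list, cdh5 and FLI1, had 0 counts in anterior B. Of the 9 skin markers, 4 had 0 counts in all libraries, which is near the 44.1% of all genes counted. The summed skin marker level was 60.8 CPM in anterior B, 0 in anterior G and 0.454 to 26.0 CPM in posterior libraries. Their part in the low receptor values was not tested.

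**Figure D2:**
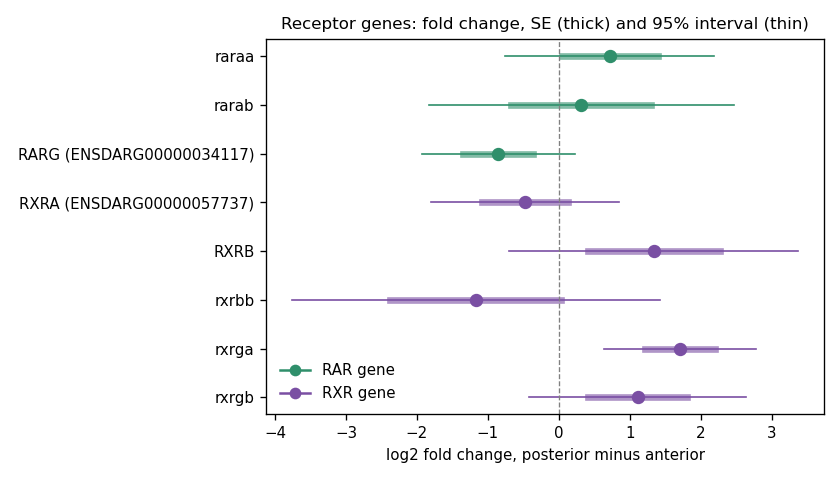
Log2 fold change, posterior minus anterior, of the 8 tested receptor genes from the edgeR fit; dots are estimates, thick lines the SE and thin lines the 95% interval. The interval of rxrga runs from 0.63 to 2.77 and does not reach 0, while the other 7 intervals include 0.

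In all, 4 of the 10 receptor genes had groups that did not overlap, 2 in each direction. Among all genes tested, 9.57% lay higher in every posterior library and 12.3% higher in every anterior library. The direction of 7 of the 8 tested receptor genes was the same under all 13 alternatives run, and rarab was the exception. Leaving out posterior R and using the 4 libraries with no block are the same fit, and several other alternatives keep all 5 libraries. The log2 fold change of raraa was 0.090 without anterior B, so its direction was not firm.

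The genes with 0 counts could not be compared. The floor of 3 counts was 0.149 to 0.201 CPM of the library total, and it covers counting error only. Of all 31953 genes, 14082 (44.1%) had 0 counts in every library. Reads that aligned to several places were left out of the gene counts, so reads shared with a near-identical copy would be missing for any receptor gene. Their line held 16.55% to 20.3% of the total of each deposited file. Whether that line counts reads or alignments is not stated in the sources used here. The use of strand in counting is not stated, and reads of overlapping antisense genes cannot be told apart.

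Summed over each family, RXR reads differed more between the groups than RAR reads. The RXR genes summed to 243 and 425 CPM in the anterior libraries and to 657, 710 and 658 CPM in the posterior libraries. The posterior libraries were close to each other and all above the anterior ones, and the ratio of the group means was 2.02. Without rxrga the RXR sum was 157 and 284 CPM in the anterior and 403, 218 and 288 CPM in the posterior libraries, which overlapped. The RAR genes summed to 291 and 350 CPM in the anterior and 219, 323 and 254 CPM in the posterior libraries. These also overlapped, with a ratio of means of 0.828. Sums over chosen genes were not tested.

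Shares of each family's counts, which do not depend on library size, are shown per library and were not tested. They are shares of reads and not of molecules, because longer transcripts give more reads. Of RXR counts, rxrga and rxrgb together held 44.4% and 64.0% in the anterior and 77.8%, 85.2% and 77.6% in the posterior libraries. All posterior libraries were above both anterior ones. RXRA (ENSDARG00000057737) held 38.0% and 26.3% of RXR counts in the anterior and 9.40%, 7.83% and 15.3% in the posterior libraries, the reverse order. Taken alone, rxrga held 35.5% and 33.2% in the anterior and 38.7%, 69.4% and 56.2% in the posterior libraries, so posterior B was close to anterior B. For rxrgb alone the shares were 8.94% and 30.8% in the anterior and 39.1%, 15.8% and 21.5% in the posterior libraries, which overlapped.

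Of RAR counts, RARG (ENSDARG00000034117) held 88.5% and 60.3% in the anterior and 47.4%, 57.5% and 39.6% in the posterior libraries. The group ranges did not overlap, though anterior G and posterior G were close. The share of raraa was 8.93% and 28.0% in the anterior and 42.2%, 35.1% and 42.3% in the posterior libraries. Shares within a family sum to 100%, so a higher share of 1 gene lowers the others. The widest 95% Wilson interval of these shares spanned 3.37 percentage points and covers counting error only.

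**Figure D3:**
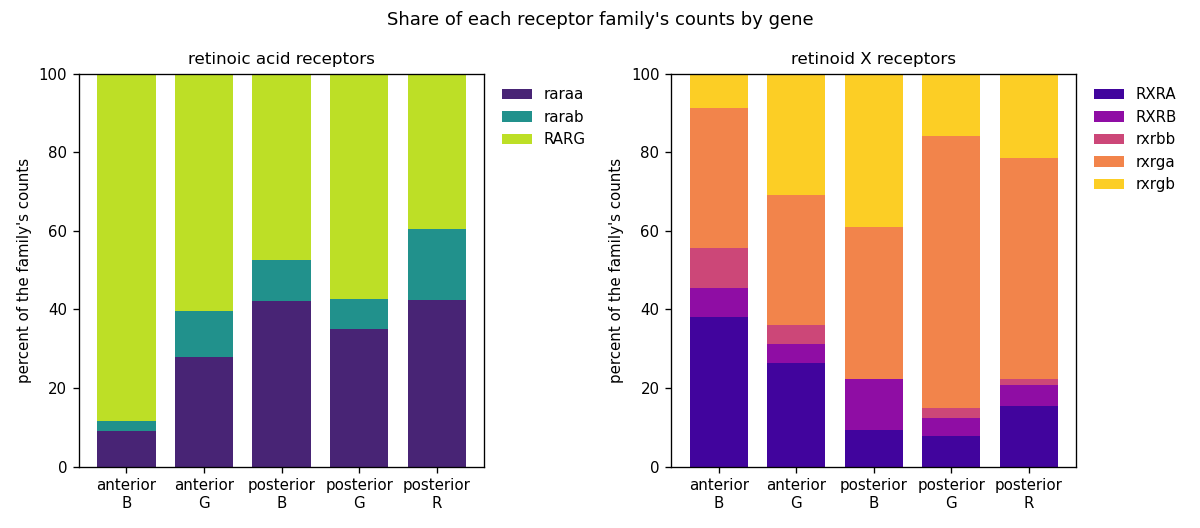
Share of the counts of each receptor family taken by each gene, in percent, for every library; RAR genes on the left, RXR genes on the right, with genes at 0 counts left out. RARG takes 88.5% of RAR counts in anterior B and 39.6% in posterior R, and rxrga with rxrgb takes 44.4% of RXR counts in anterior B and 85.2% in posterior G.

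The gene rxrga had both the highest mean CPM and the smallest p of the receptor genes, so genes with a similar profile were sought for it alone. Likeness was the root mean square difference of centred log2(CPM + 1) values over the 5 libraries, among 7858 genes with a symbol and a mean of at least 10 CPM. The nearest genes were ARGLU1, with a difference of 0.16, the histone methyltransferase gene kmt5ab, with 0.162, and the neurogenic transcription factor gene NEUROD4, with 0.191. ARGLU1 had 16.8 and 28.6 CPM in the anterior and 64.2, 88.9 and 74.0 CPM in the posterior libraries. This is a description over 5 libraries and carries no test.

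The other genes of the retinoid pathway were taken from lists by role. Of 124 genes in 8 lists, 84 were tested. None had an edgeR adjusted p under 0.05, while DESeq2, which called rxrga, also called 9 of them. Among these the DESeq2 adjusted p was 0.00094 for DHRS3, 0.000129 for CRABP1, 0.0191 for THRB and 0.0267 for NR6A1. It was 4.05e-10 for hoxb1b, 1.31e-05 and 1.85e-05 for the HOXB5 genes and 0.0031 for hoxb6b. An unadjusted p under 0.05 was found for 12 genes with a higher posterior level and 5 with a higher anterior level, beside 270 and 498 of the 11827 genes tested. Of the 12 higher genes, 10 were in the list of hindbrain genes that respond to retinoic acid, and 0 of the 5 lower genes were. The count of higher genes is therefore mostly a count from that list and not from the other 7 lists. The median log2 fold change was 0.23 over the 84 genes and -0.055 over all genes tested. Of the 84 genes, 29 were in the hindbrain list, with a median of 0.47.

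**Figure D4:**
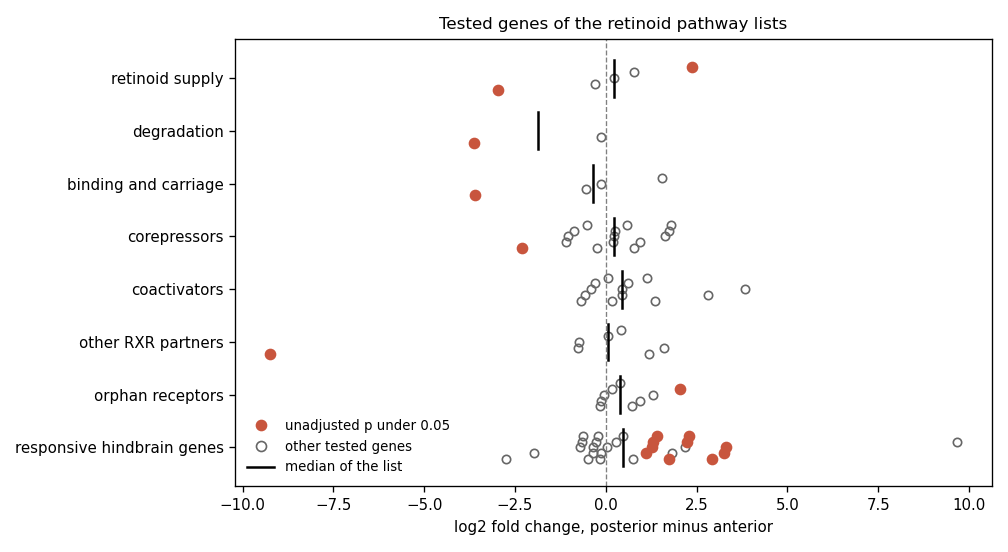
Log2 fold change, posterior minus anterior, of the 84 tested genes of the retinoid pathway lists by role; filled points had an unadjusted p under 0.05, open points did not, and vertical bars are list medians. All 10 filled points among the responsive hindbrain genes lie to the right of 0; points beyond 9 on either side belong to genes with counts of 0 or 1 in every library of 1 group, and their size depends on the fit.

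The retinoid supply list holds 20 genes for uptake, carriage and storage and for enzymes that act on retinol and retinaldehyde. Of these, 12 had 0 counts in all libraries, beside 44.1% of all genes counted, and 5 were tested. ALDH1A2, which makes retinoic acid from retinaldehyde, had 0 counts in 4 libraries and 4 counts in posterior R. RDH10 (ENSDARG00000058730), which makes retinaldehyde from retinol, had 140 and 152 CPM in the anterior and 0, 49.7 and 7.76 CPM in the posterior libraries (edgeR adjusted p 0.726). DHRS3 (ENSDARG00000044803), which turns retinaldehyde back into retinol, went the other way. It had 55.7 and 156 CPM in the anterior and 409, 633 and 640 CPM in the posterior libraries (edgeR adjusted p 0.402). The other DHRS3 gene (ENSDARG00000044982) had 0 and 10.5 CPM in the anterior and 0, 21.2 and 0 CPM in the posterior libraries. The other RDH10 gene (ENSDARG00000012369) was counted in posterior G alone, at 2.725 CPM. For RDH10 ENSDARG00000058730 the unadjusted p was 0.00533 in the main edgeR fit, but 0.196 in edgeR's legacy form and 0.125 by DESeq2.

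Of the 3 cyp26 genes, whose enzymes degrade retinoic acid, CYP26A1 had 0 counts in all libraries. CYP26B1 had 355 and 157 CPM in the anterior and 163, 249 and 284 CPM in the posterior libraries, and the groups overlapped. CYP26C1 had 778 CPM in anterior G and 99.2 CPM in posterior G, but 0.767, 0.454 and 0.633 CPM in anterior B, posterior B and posterior R. Its fitted log2 fold change was -3.62 ± 1.33 (SE; edgeR adjusted p 0.726) and turned to 5.37 without anterior G. CRABP1 (ENSDARG00000035904), which binds retinoic acid in the cytoplasm, was the lowest-p gene of the lists. It had 481 and 1001 CPM in the anterior and 33.5, 119 and 34.0 CPM in the posterior libraries (edgeR adjusted p 0.219). The other CRABP1 gene (ENSDARG00000045926) was counted in anterior B alone, at 0.944 CPM. Both CRABP2 genes overlapped between the groups, with log2 fold changes of -0.13 (ENSDARG00000073978) and 1.55 (ENSDARG00000030449). Of the 4 tested genes in this list, 1 had a higher and 3 a lower posterior level by fold change.

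RARs recruit corepressors and coactivators. Of 15 tested corepressor genes 1 had an unadjusted p under 0.05, and of 13 tested coactivator genes 0 had one, where 6.49% of all genes tested had one in either direction. The list medians were log2 fold changes of 0.23 and 0.44. The corepressor gene was SIN3A (ENSDARG00000059812), a scaffold of deacetylase complexes. It had 92.2 and 64.5 CPM in the anterior and 0, 25.5 and 20.5 CPM in the posterior libraries (edgeR adjusted p 0.726). Its unadjusted p was 0.0273 in the main edgeR fit, but 0.295 in edgeR's legacy form and 0.229 by DESeq2. NCOR1, the corepressor that binds RARs without ligand, had 7.26 and 35.8 CPM in the anterior and 74.4, 46.6 and 86.7 CPM in the posterior libraries (edgeR adjusted p 0.726).

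Over all genes tested, 6.49% had an unadjusted p under 0.05 in either direction. Of 17 genes for other receptors that pair with RXR, 7 were tested and 1 had such a p. This was THRB, a thyroid hormone receptor gene, with 297 and 317 counts in the anterior and 0, 0 and 1 count in the posterior libraries (edgeR adjusted p 0.726). Of 9 tested orphan receptor genes, NR6A1 (ENSDARG00000014480) had an unadjusted p under 0.05. It had 29.0 and 36.9 CPM in the anterior and 178, 99.3 and 137 CPM in the posterior libraries (edgeR adjusted p 0.726), and the groups did not overlap.

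The next list holds hindbrain genes known to respond to retinoic acid, or to work with those that do, and 29 were tested. Of these, 10 had an unadjusted p under 0.05, and all 10 were higher in posterior cells. Over all genes tested, 2.28% were higher and 4.21% lower in posterior cells at this p. Of the 10 list genes, 9 were hox genes and the other was MEIS2. The smallest p were those of hoxb1b, both genes named HOXB5 and hoxb6b, with log2 fold changes of 2.92, 3.32, 1.398 and 2.29 and edgeR adjusted p from 0.279 to 0.446. By direction of the fold change alone, 17 of the 29 genes were higher and 12 lower in posterior cells, beside 5671 and 6156 of all genes tested. Over the 29 genes the median log2 fold change was 0.47. These genes were chosen with earlier results of these libraries known, so their count is not independent evidence of a direction.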

How the data were processed

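The authors deposited unnormalised counts of reads for each Ensembl gene, as whole numbers. The submitters' processing notes name bcl2fastq 1.8.4, TopHat2 2.1.0, HTSeq 0.6.1 and the genome build GRCz10, without their settings. The gene annotation and the strand setting are not given in the sources used here. Per the labels' protocols, cDNA was amplified with a SMART-Seq kit and made into Nextera XT libraries. Groups came from the source names and letters B, G and R from the titles.

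Symbols from a table of names covered 26121 of 31953 identifiers. Lines that name no gene were left out of library sizes. Of the total of each file, the line for no feature held 9.17% to 9.97% and the line for ambiguous reads 0.819% to 1.03%. The line for alignment to several places held 16.55% to 20.3%, and it may count alignments and not reads.

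Counts were tested with edgeR 4.0.16 in R 4.3.3 (TMM factors, filterByExpr with a minimum count of 10 and total of 15, estimateDisp, glmQLFit in its newer form, glmQLFTest). The test is two-sided, with Benjamini-Hochberg adjustment over all 11827 genes and a threshold of 0.05. SE is the absolute log2 fold change divided by the square root of F. The 95% intervals use it with the test's total degrees of freedom, which add prior degrees of freedom to the residual ones. The script was tested on simulated data. Alternatives were RLE factors, 2 other filters, DESeq2 1.42.0, limma-voom (limma 3.58.1), the legacy quasi-likelihood form, the replicate letter as a block, the same 4 libraries with no block, and each library left out.

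The genes named were all receptor genes, and from each pathway list up to 4 genes with an unadjusted p under 0.05. Named outside this rule were ALDH1A2, CYP26A1, CYP26B1, NCOR1, MEIS2, both CRABP2 genes and the second SIN3A, DHRS3, RDH10 and CRABP1 genes. So were the cell type markers other than ISL1 and PHOX2A. They were named after their values were seen. ISL1 and PHOX2A were kept as a check of the labels (another marker under the rule is not reported here), and the 3 genes most like the receptor gene with the highest mean CPM or the smallest p were added. Receptor genes and lists were chosen with earlier results of these data known. Sequences and coordinates were not used here.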

Additional observations from a re-analysis of the deposited data

How the results depend on the processing

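No gene passed an adjusted p of 0.05 (a count of 0, with 768 at an unadjusted p under 0.05), and this was the same under RLE factors, both other filters, limma-voom, the legacy form (chosen after seeing the data), the replicate block and the 4 libraries without it. DESeq2 called 252 genes on the same libraries, 1 of them a receptor gene, rxrga, and 9 of them in the pathway lists. The cause of this difference between tools was not tested. Leaving out each library in turn gave 0 to 7 genes, and 0 receptor genes each time.

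The 768 genes became 502 to 1009 without 1 library (502 without posterior G, 1009 without anterior G) and 211 with the replicate block. The same 4 libraries with no block gave 524, so leaving out posterior R accounts for part of the move. The number of receptor genes with such a p was 1, and 1 to 2 without 1 library, where rxrgb joined rxrga without anterior G. For the pathway lists it was 17, 8 with the replicate block and 12 in the same 4 libraries with no block. The number of receptor genes whose groups did not overlap was 4, and 5 to 7 without 1 library, with 7 without anterior G. Smaller groups overlap less by construction.

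Without 1 library, the log2 fold change of rarab ran from -0.38 (without anterior B) to 2.04 (without anterior G). It was -0.093 without posterior R, which is also the value of the 4 libraries with no block. That of CYP26C1 ran from -9.47 (without posterior G) to 5.37 (without anterior G) and of ISL1 from -0.29 (without anterior G) to 0.083 (without anterior B). These changes of sign rest on the library left out. Libraries that share a letter deviated together by a correlation of -0.00109 (B) and 0.0101 (G) across genes, so the letters were not taken as pairs. With the replicate block no receptor call changed. Levels per kilobase of transcript were not run, since no transcript lengths were used here.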

Other observations

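The genes named SIN3A lay in opposite order. ENSDARG00000059812 had 92.2 and 64.5 CPM in the anterior and 0, 25.5 and 20.5 CPM in the posterior libraries. ENSDARG00000079716 had 29.6 and 17.1 CPM in the anterior and 122, 62.0 and 50.2 CPM in the posterior libraries; its log2 fold change was 1.75 ± 0.84 (SE; edgeR adjusted p 0.726). Neither passed the adjusted threshold, and the difference between them was not tested.

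PHOX2A, a transcription factor gene of cranial motor neurons, was far higher in posterior B than in any other library. It had 84.9 and 220.0 CPM in the anterior and 1466, 106 and 310.2 CPM in the posterior libraries, in the order B, G, R (edgeR adjusted p 0.726).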
